A study of Mus musculus with 6 samples.

Results

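The cell cycle and DNA replication genes described here are 32 genes chosen by symbol, 11 of which act at the entry into and passage through DNA synthesis (G1/S) and 21 in the approach to and passage through mitosis (G2/M). All 32 symbols matched 1 row each among the 55416 gene rows of the deposited count table. Their RNA was measured in hippocampus of 36-day-old mice that had been injected subcutaneously with ethynyluridine (EU, 50 mg/kg) each day from postnatal day 3 to day 5, or with as much PBS. EU is a uridine analogue that enters newly made RNA and carries an alkyne, so that labelled RNA can be joined to biotin by click chemistry and captured on streptavidin. RNA of the EU and the PBS mice went through the same click reaction and pulldown, and total RNA libraries were made from what was captured: 3 from EU mice and 3 from PBS mice. The comparison asks which RNAs made in the labelled days were still present on day 36, with the PBS pulldown as the background of the beads. The labels give no strain, sex or pooling of animals.

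A cell that divides first licenses its replication origins by loading the MCM helicase, then makes nucleotides and copies its DNA around the sliding clamp PCNA, and later switches on cyclin B, CDK1 and the kinases that build and check the mitotic spindle. In most tissues the G1/S genes are driven by E2F factors, and the G2/M genes by MYBL2, FOXM1 and the MuvB core, which binds a short promoter element called CHR. In non-dividing cells the DREAM complex represses both groups. In the postnatal hippocampus the dividing cells are mainly the progenitors of dentate granule neurons and oligodendrocyte precursors, while the neurons that make up most of the tissue have left the cycle.

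The promoters of 27 of the 32 genes were found in the RefSeq table (GRCm38.p6), and the 250 bases before the start of each were searched on both strands for the letters TTTGAA or TTCGAA of CHR, CCAAT of the CCAAT box, and for E2F the word TTCCCGC, the word TTGGCGC, the word TTCGCGC or the word TTGCCGC. E2F letters were held by 5 of 9 G1/S promoters (55.6%), 3 of 18 G2/M promoters (16.7%) and 7.89% of all 32851 promoters in the table. CHR letters were held by 1 of 9 G1/S promoters (11.1%), 8 of 18 G2/M promoters (44.4%) and 17.1% of all promoters. CCAAT was held by 8 of 9 G1/S promoters (88.9%), 16 of 18 G2/M promoters (88.9%) and 33.8% of all. The E2F words can overlap each other on opposite strands, as in Mcm6, and in Ccnb1 the E2F match overlaps a CCAAT box. A match describes letters and shows neither a bound site nor a cause of any level below. The 120 bases before the start are shown for 2 G1/S genes and 3 G2/M genes whose levels are described below, with capitals for any of these motifs in either orientation: Mcm6 (chr1:128359706-128359825, minus strand), Rrm1 (chr7:102441575-102441694, plus strand), Mki67 (chr7:135716380-135716499, minus strand), Cdc20 (chr4:118437344-118437463, minus strand) and Ube2c (chr2:164769809-164769928, plus strand), all 5′ to 3′ on the strand of the gene.
Mcm6: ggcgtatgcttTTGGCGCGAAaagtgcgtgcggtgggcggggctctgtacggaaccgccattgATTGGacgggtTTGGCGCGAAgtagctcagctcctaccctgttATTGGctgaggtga
Rrm1: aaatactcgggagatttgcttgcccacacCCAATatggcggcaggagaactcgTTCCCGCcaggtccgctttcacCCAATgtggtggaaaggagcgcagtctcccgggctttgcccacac
Mki67: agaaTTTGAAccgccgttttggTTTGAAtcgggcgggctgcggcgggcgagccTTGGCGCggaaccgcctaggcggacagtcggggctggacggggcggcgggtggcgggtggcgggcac
Cdc20: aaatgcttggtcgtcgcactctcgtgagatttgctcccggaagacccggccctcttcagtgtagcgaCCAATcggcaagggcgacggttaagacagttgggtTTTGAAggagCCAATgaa
Ube2c: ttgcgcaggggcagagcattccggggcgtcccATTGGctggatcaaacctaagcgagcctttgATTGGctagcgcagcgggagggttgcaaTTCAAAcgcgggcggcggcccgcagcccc
In Mcm6 and Rrm1 the capitals mark E2F and CCAAT letters and in Cdc20 and Ube2c CHR and CCAAT letters, while Mki67 has CHR and E2F letters in this stretch. The G2/M genes shown all have CHR letters, which 8 of 18 G2/M promoters held. The bases after the start were found in a GENCODE M21 transcript of the gene for Rrm1, Cdc20 and Ube2c. For Mcm6 and Mki67 they were not found.

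Library totals lay between 39886723 and 58301239 counts, and levels are given as CPM, counts per 1000000 library counts scaled by TMM factors. A count of 0 allows up to 3 counts in a library, or 0.0520 to 0.0748 CPM. PBS replicate 2 stood apart: it detected 19243 genes against 23816 to 26372 in the other libraries. Of 12 markers of hippocampal principal neurons, 12 were tested and none had 0 counts in any library, and their summed level was 3464 to 3808 CPM in EU and 4152 to 4182 CPM in PBS. ERCC spike-in rows held 0 counts, so a yield of all RNAs that differed between the pulldowns could not be seen after scaling. The labels do not state whether each replicate was a separate mouse, and the p-values therefore rest on library-to-library spread that may be technical.

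No gene of the 32 passed the test of EU against PBS, although EU and PBS values of Mki67, Cdc20, Bub1b and Ccnb2 (higher in EU) and Tpx2 (lower in EU) lay apart. All 32 passed the filter on low counts and were tested with edgeR's quasi-likelihood test among 18511 genes. At an adjusted p under 0.05, 0 of 32 were called (background 0%), and at an unadjusted p under 0.05 also 0 of 32 (background 7.88%). Called members also numbered 0 with limma voom (background 0.0648%), with edgeR without the filter (background 0.797%) and with DESeq2 (background 1.56%), where 25 of the 32 received no adjusted p after its filter on mean counts. Higher values in EU were seen for 18 of the 32 genes (56.2%), against 52.2% of all genes tested, and the median log2 fold of EU over PBS was 0.029, against 0.011 for all. EU and PBS values lay apart without overlap for 5 of the 32 genes (15.6%), against a background of 15.7% of all genes tested. In a pulldown from bulk tissue, differences in cell number, RNA per cell, labelled RNA still present and capture on the beads cannot be told apart.

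**Figure D1:**
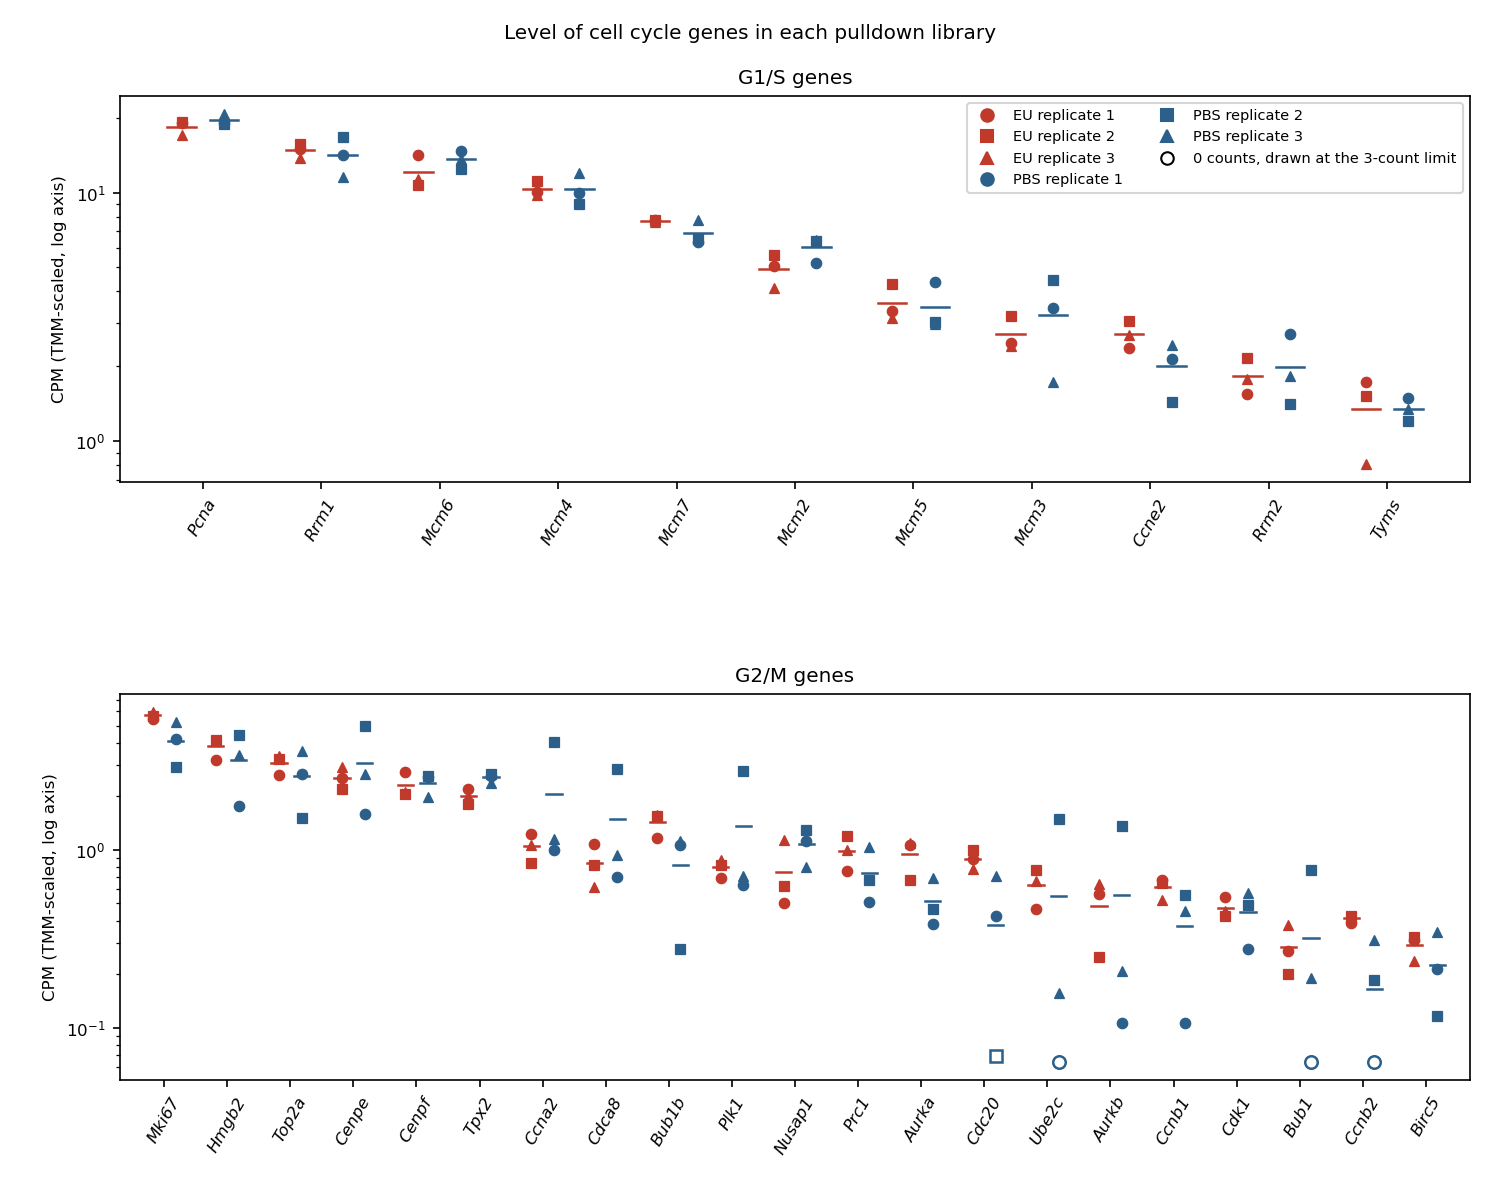
CPM of each gene (log axis) in the 3 EU libraries (red, left) and the 3 PBS libraries (blue, right), with symbols for the replicate number, bars for group means and open symbols for 0 counts drawn at the 3-count limit. The G1/S genes lie between 0.807 CPM (Tyms, EU replicate 3) and 20.8 CPM (Pcna, PBS replicate 3), and 4 values in PBS libraries, all of G2/M genes, are 0.

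Per length of transcript, the G1/S genes had the higher median. Over the 6 libraries it was 1.57 CPM per kilobase, against 0.307 for the G2/M genes and 3.51 for all tested genes with a length. The ranges of the groups overlapped, with Tyms (G1/S, 0.348 CPM per kilobase) at rank 21 and Hmgb2 (G2/M) at rank 7 of the 32. The values and ranks rest on the longest GENCODE transcript of each gene, and a shorter form would give a higher value. Pcna, the clamp that holds DNA polymerase on its template, was far above the rest at 12.5 CPM per kilobase (11.2 to 13.7 over the libraries). Next in order were Mcm6 (2.94), Mcm4 (2.87), Rrm1 (2.64) and Mcm7 (2.46 CPM per kilobase). Their ranges over the libraries overlapped, at 2.45 to 3.37 for Mcm6, 2.497 to 3.34 for Mcm4, 2.104 to 3.06 for Rrm1 and 2.13 to 2.62 for Mcm7, so this order is not larger than their spread. The highest G2/M gene per length was Hmgb2, a chromatin protein that many non-dividing cells also contain, at 1.34 CPM per kilobase. The lowest were Birc5 (0.0774), Bub1 (0.0881) and Cdk1 (0.105), whose ranges also overlapped (0.0348 to 0.104, 0 to 0.224 and 0.0633 to 0.131 CPM per kilobase).

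The summed level of the 11 G1/S genes was 82.5, 84.2 and 74.4 CPM in the EU libraries and 83.5, 81.5 and 82.4 CPM in the PBS libraries. The EU libraries spanned the wider range and the groups overlapped, with means of 80.3 ± 5.25 CPM in EU and 82.5 ± 1.01 CPM in PBS (SD, n = 3 each). Their log2 folds ran from -0.29 (Mcm2) to 0.42 (Ccne2) with a median of 0.0030, and 6 were above 0 and 5 below, while Mcm4 and Tyms were below 0 under RLE scaling. The CPM of EU and PBS overlapped for all 11.

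The 6 MCM genes encode the ring-shaped helicase that is loaded at origins in G1, and in this group 3 had higher and 3 lower values in EU, with Mcm4 lower instead under RLE scaling. Mcm2 had 5.04, 5.59 and 4.13 CPM in the EU libraries and 5.21, 6.41 and 6.44 CPM in the PBS libraries. PBS replicates 2 and 3 were the highest and EU replicate 3 the lowest, while the other 3 libraries lay close together. The log2 fold of Mcm2 was -0.29 (95% interval -0.72 to 0.13, edgeR adjusted p = 0.769). Mcm7 had 7.76, 7.75 and 7.58 CPM in EU and 6.301, 6.502 and 7.75 CPM in PBS, with PBS replicate 3 level with the EU libraries, and a log2 fold of 0.17 (95% interval -0.17 to 0.51, edgeR adjusted p = 0.827). The Mcm7 locus holds the miRNA genes Mir25, Mir93 and Mir106b and overlaps Cops6 and Ap4m1 on the other strand, so reads of these genes cannot be assigned with certainty. Mcm6 had 14.1, 10.7 and 11.3 CPM in EU and 14.7, 12.5 and 13.7 CPM in PBS, a log2 fold of -0.17 (95% interval -0.49 to 0.15). Here EU replicate 1 was as high as the PBS libraries and the other two EU libraries were below them. Mcm3 spread most among the PBS libraries, at 3.45, 4.43 and 1.74 CPM, against 2.48, 3.19 and 2.42 CPM in EU. Its highest and lowest values of all 6 libraries both came from PBS, and its log2 fold was -0.25 (95% interval -1.03 to 0.54). Mcm4 had 10.1, 11.1 and 9.81 CPM in EU and 9.94, 8.96 and 11.99 CPM in PBS, a log2 fold of 0.0034 (95% interval -0.33 to 0.34). Mcm5 had 3.34, 4.29 and 3.13 CPM in EU and 4.38, 3.02 and 2.95 CPM in PBS, a log2 fold of 0.056 (95% interval -0.52 to 0.63). In both genes the EU and PBS values were interleaved.

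Pcna (ENSMUSG00000027342, minus strand of chromosome 2, 132091082 to 132095234 in GRCm39) had the smallest standard error of the 32 genes (0.103 on the log2 scale). It had 19.03, 19.1 and 16.98 CPM in the EU libraries and 19.1, 18.9 and 20.8 CPM in the PBS libraries, and EU replicate 3 was the lowest and PBS replicate 3 the highest of otherwise nearly equal values. The log2 fold was -0.092 (95% interval -0.32 to 0.14, edgeR adjusted p = 0.855). The pseudogenes Pcna-ps1 and Pcna-ps2 held 0 and 80 counts over the 6 libraries, and reads shared with such copies may be lost from Pcna.

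Nucleotide supply was represented by Rrm1 and Rrm2, the large and small subunits of ribonucleotide reductase, and by Tyms, thymidylate synthase. Rrm1 had 15.02, 15.7 and 13.7 CPM in EU and 14.1, 16.7 and 11.5 CPM in PBS, where PBS replicates 2 and 3 bracketed all other libraries, and its log2 fold was 0.069 (95% interval -0.26 to 0.40). Rrm2, the subunit whose level follows S phase in dividing cells, had 1.55, 2.17 and 1.78 CPM in EU and 2.703, 1.42 and 1.82 CPM in PBS, with a log2 fold of -0.11 (95% interval -0.91 to 0.68). Tyms had 1.73, 1.52 and 0.807 CPM in EU and 1.49, 1.21 and 1.35 CPM in PBS, and the low EU replicate 3 made it one of 7 genes that varied more within EU than within PBS, by the ratio to counting error described below. Its log2 fold was 0.0030 (95% interval -0.96 to 0.96). Ccne2, a cyclin E that activates CDK2 at the start of S phase, had 2.37, 3.04 and 2.68 CPM in EU and 2.15, 1.44 and 2.43 CPM in PBS. The highest PBS value lay just above the lowest EU value, and the log2 fold was 0.42 (95% interval -0.26 to 1.11, edgeR adjusted p = 0.789). Ccne1, the other cyclin E gene, was added after its values were seen. It had means of 7.13 CPM in EU and 8.17 CPM in PBS and a log2 fold of -0.19 (95% interval -0.63 to 0.24). Ccne2 overlaps Ints8 on the other strand, which had 5804 counts in all, and the strand setting of the counts is not given in the sources used here.

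The summed level of the 21 G2/M genes was 29.4, 29.7 and 31.99 CPM in the EU libraries and 21.9, 36.4 and 28.6 CPM in the PBS libraries. The EU libraries lay close together between PBS replicate 1, the lowest of the 6, and PBS replicate 2, the highest. Means were 30.4 ± 1.41 CPM in EU and 29.01 ± 7.25 CPM in PBS (SD, n = 3 each). Of the 21 log2 folds 12 were above 0 and 9 below, with a median of 0.22 and a range from -0.97 (Ccna2) to 1.29 (Ccnb2). That median was -0.041 without PBS replicate 1 and 0.28 without PBS replicate 2. The standard errors were large, with a median of 0.574 for the G2/M genes against 0.19 for the G1/S genes and 0.168 for all genes tested. CPM did not overlap for 5 of 21 genes (23.8%), 4 of them higher in EU (background 8.52% of all genes tested) and 1 lower (background 7.18%).

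**Figure D2:**
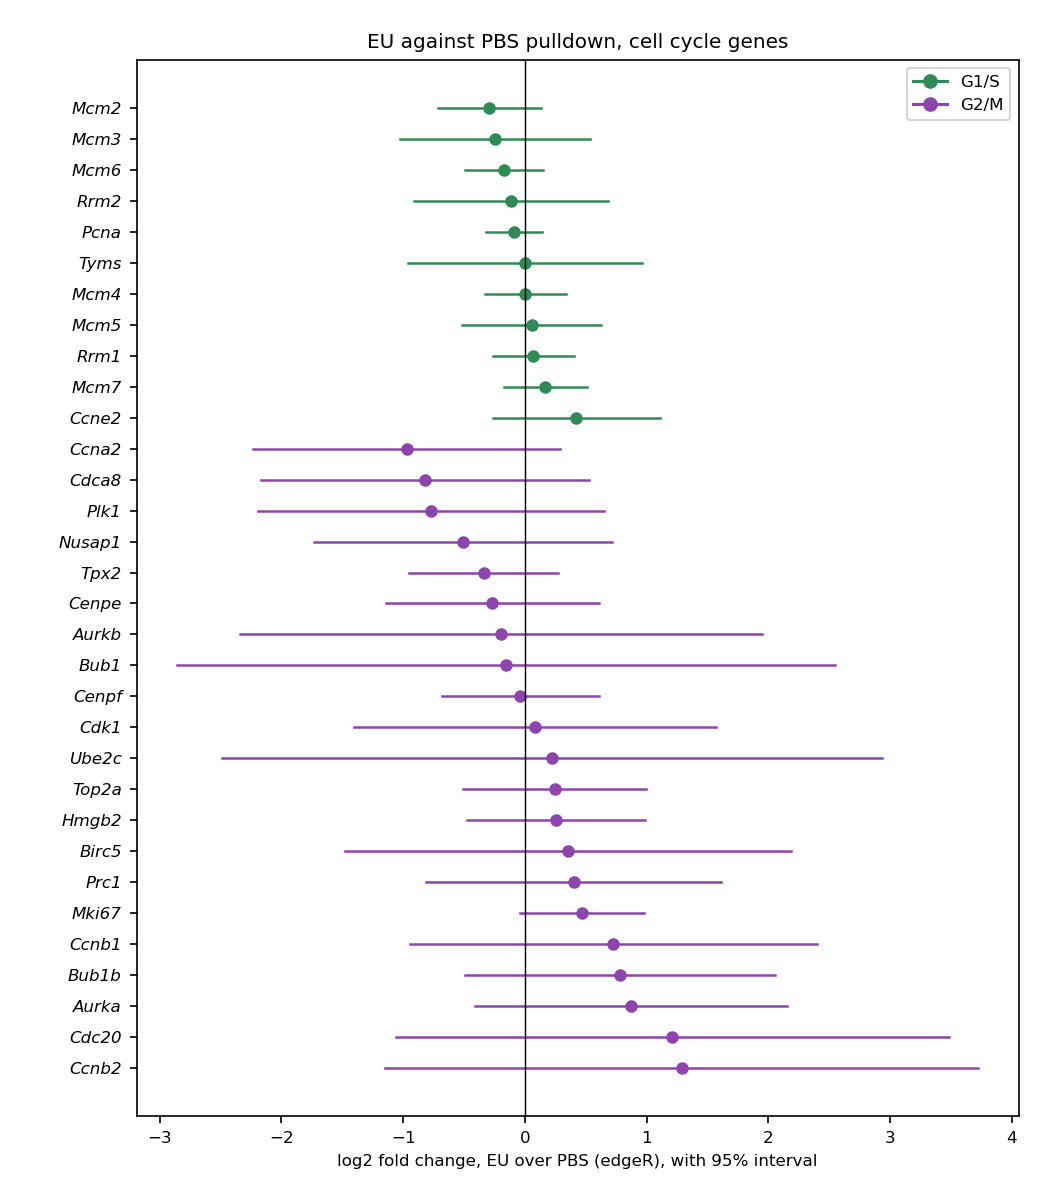
Log2 fold of EU over PBS from edgeR for each gene (points) with its 95% interval (lines), G1/S genes above in green and G2/M genes below in purple, ordered by fold. Every interval contains 0, and those of the G2/M genes reach widest at Bub1 (-0.16) and Ube2c (0.22).

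Mki67 (ENSMUSG00000031004, minus strand of chromosome 7, 135291513 to 135318090 in GRCm39) encodes Ki-67, the coat of mitotic chromosomes that is used as a marker of proliferating cells, and it had the smallest p of the 32 genes. It had 5.45, 5.68 and 5.99 CPM in the EU libraries and 4.19, 2.93 and 5.204 CPM in the PBS libraries, or 281, 228 and 252 counts in EU and 197, 126 and 300 counts in PBS. All 3 EU libraries were above all 3 PBS libraries, the gap between EU replicate 1 and PBS replicate 3 was small, and PBS replicate 2 was well below the others. The log2 fold was 0.47 (95% interval -0.040 to 0.98, edgeR adjusted p = 0.6796), and the unadjusted p was 0.0670. The log2 fold of Mki67 was 0.28 without PBS replicate 2, and 0.68 without PBS replicate 3, where the unadjusted p was 0.0170 and the edgeR adjusted p 0.388. In the fit without PBS replicate 3, 1 of the 32 genes had an unadjusted p under 0.05 by edgeR, against 10.6% of all genes tested. Top2a, the topoisomerase that untangles sister chromatids, had 2.64, 3.24 and 3.37 CPM in EU and 2.66, 1.51 and 3.61 CPM in PBS, with PBS replicates 2 and 3 at the low and the high end. Its log2 fold was 0.25 (95% interval -0.50 to 0.99). Hmgb2 had 3.22, 4.14 and 4.11 CPM in EU and 1.77, 4.43 and 3.4 CPM in PBS, with PBS replicates 1 and 2 at the ends, and a log2 fold of 0.26 (95% interval -0.48 to 0.99).

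The mitotic cyclins and their kinase differed in sign. Ccna2, cyclin A, which acts in S phase and G2, had 1.22, 0.848 and 1.07 CPM in EU and 1.0, 4.04 and 1.15 CPM in PBS. PBS replicate 2 held 174 counts and each of the other libraries 34 to 66, so that the lowest log2 fold of the 32 genes, -0.97 (95% interval -2.23 to 0.29, edgeR adjusted p = 0.744), became -0.036 without that library. Without PBS replicate 1 it was -1.30, at an unadjusted p of 0.0403 and an edgeR adjusted p of 0.484. In that fit 1 of the 32 genes had an unadjusted p under 0.05 by edgeR, against 10.1% of all genes tested. Ccnb1, a cyclin B that takes CDK1 into mitosis, had 0.679, 0.648 and 0.522 CPM in EU and 0.106, 0.557 and 0.451 CPM in PBS, with PBS replicate 1 low at 5 counts and a log2 fold of 0.73 (95% interval -0.95 to 2.40), or 0.29 to 1.11 with 1 library left out. The other cyclin B gene, Ccnb2, had 20, 17 and 18 counts in EU and 0, 8 and 18 counts in PBS, so that the EU libraries were alike and none of the PBS libraries reached their CPM. The log2 fold of Ccnb2 was 1.29 (95% interval -1.15 to 3.73, edgeR adjusted p = 0.818), and it was 0.71 without PBS replicate 1, the library at 0. Cdk1, the kinase itself, had 0.543, 0.424 and 0.451 CPM in EU and 0.277, 0.488 and 0.573 CPM in PBS, a log2 fold of 0.085 (95% interval -1.40 to 1.57).

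Of the other mitotic kinases, Plk1, which drives centrosome maturation and mitotic entry, had 0.699, 0.823 and 0.879 CPM in EU and 0.639, 2.76 and 0.711 CPM in PBS. PBS replicate 2 alone was high, and the log2 fold of -0.77 (95% interval -2.19 to 0.65) became 0.24 without it. Aurka, the spindle pole kinase, had 1.07, 0.673 and 1.09 CPM in EU and 0.383, 0.464 and 0.694 CPM in PBS, where EU replicate 2 was below PBS replicate 3 and the groups overlapped there. Its log2 fold was 0.87 (95% interval -0.41 to 2.16, edgeR adjusted p = 0.769). Aurkb, the kinase of the chromosomal passenger complex, had 0.563, 0.249 and 0.641 CPM in EU and 0.106, 1.37 and 0.208 CPM in PBS. The PBS libraries held both the highest and the lowest values, and the log2 fold of -0.20 (95% interval -2.34 to 1.94) became 1.59 without PBS replicate 2, at an unadjusted p of 0.0492 and an edgeR adjusted p of 0.495.

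The checkpoint and anaphase genes showed the same scatter among the PBS libraries. Bub1b, the checkpoint protein BubR1, had 1.16, 1.55 and 1.57 CPM in EU and 1.06, 0.279 and 1.13 CPM in PBS, all EU values being above all PBS values and PBS replicate 2 far below the rest. Its log2 fold was 0.78 (95% interval -0.49 to 2.06, edgeR adjusted p = 0.789), and without PBS replicate 2 it was 0.37. Cdc20 (ENSMUSG00000006398, minus strand of chromosome 4, 118290098 to 118294549 in GRCm39), the activator of the anaphase-promoting complex, had 46, 40 and 33 counts in EU and 20, 0 and 41 counts in PBS. In CPM the 3 EU libraries were above the 3 PBS libraries, of which PBS replicate 2 held none, and the log2 fold was 1.21 (95% interval -1.06 to 3.48, edgeR adjusted p = 0.815). Without PBS replicate 2 it was 0.63. Cdc20 overlaps Elovl1 on the other strand, which held 4111 counts. Ube2c (ENSMUSG00000001403, plus strand of chromosome 2, 164611818 to 164620742 in GRCm39), the ubiquitin-conjugating enzyme that works with that complex, had 24, 31 and 28 counts in EU and 0, 64 and 9 counts in PBS. Here PBS replicate 2 was the highest of the 6 libraries and PBS replicate 1 held none. The log2 fold of Ube2c was 0.22 (95% interval -2.49 to 2.93, edgeR adjusted p = 0.971), against 2.90 without PBS replicate 2, at an unadjusted p of 0.0118 and an edgeR adjusted p of 0.359. Bub1, the kinase that recruits the checkpoint to kinetochores, had 14, 8 and 16 counts in EU and 0, 33 and 11 counts in PBS and a log2 fold of -0.16 (95% interval -2.86 to 2.55).

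Among centromere and passenger genes, Cenpe, a kinetochore motor, had 2.52, 2.19 and 2.92 CPM in EU and 1.596, 4.95 and 2.67 CPM in PBS, and Cdca8, the passenger subunit borealin, had 1.09, 0.823 and 0.618 CPM in EU and 0.702, 2.86 and 0.937 CPM in PBS. In both genes PBS replicate 2 was the highest library, and the log2 folds of -0.27 (95% interval -1.14 to 0.61) and -0.82 (95% interval -2.17 to 0.53) became 0.25 and 0.038 without it. Cenpf, a large kinetochore protein, had 2.75, 2.07 and 2.11 CPM in EU and 2.55, 2.601 and 1.98 CPM in PBS, a log2 fold of -0.037 (95% interval -0.68 to 0.61). Birc5, the passenger subunit survivin, had 16, 13 and 10 counts in EU and 10, 5 and 20 counts in PBS, a log2 fold of 0.35 (95% interval -1.48 to 2.18). It was 0.044 without PBS replicate 2 and 0.81 without PBS replicate 3. Neither gene set the groups apart. Tpx2, which starts microtubule growth around chromosomes, had 2.21, 1.82 and 2.02 CPM in EU and 2.62, 2.67 and 2.38 CPM in PBS. It was the only one of the 32 genes with all EU values below all PBS values, and its log2 fold was -0.34 (95% interval -0.95 to 0.27, edgeR adjusted p = 0.811). Nusap1, a microtubule binder of the spindle, had 0.504, 0.623 and 1.14 CPM in EU and 1.13, 1.3 and 0.798 CPM in PBS, with EU replicate 3 among the PBS values and a log2 fold of -0.51 (95% interval -1.73 to 0.71). Prc1, which bundles the midzone of the spindle, had 0.757, 1.197 and 0.998 CPM in EU and 0.511, 0.673 and 1.04 CPM in PBS and a log2 fold of 0.40 (95% interval -0.81 to 1.61), or 0.19 to 0.73 with 1 library left out. Ccna2, Cdca8, Nusap1 and Prc1 also overlap expressed genes on the other strand (Exosc9, 9930104L06Rik, Oip5 and Rccd1), and Ccnb2 has a pseudogene row with 31 counts, so part of their reads may be assigned wrongly.

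Values of the G2/M genes scattered more among the PBS libraries than among the EU libraries. Relative to each gene's mean over the 6 libraries, the 21 genes lay between 0.477 and 1.57 in the EU libraries, with medians of 0.968, 0.924 and 1.16. They lay between 0 and 1.23 in PBS replicate 1 (median 0.6), between 0 and 2.62 in PBS replicate 2 (median 1.13) and between 0.264 and 1.34 in PBS replicate 3 (median 0.952). PBS replicate 2 held more than 2 times the mean for 6 genes (Ccna2, Plk1, Aurkb, Bub1, Ube2c and Cdca8) and under 0.5 times for 3 (Bub1b, Cdc20 and Birc5). PBS replicate 1 held under 0.5 times the mean for 5 genes. How many other tested genes with like counts passed these limits was not counted. PBS replicate 1 was the lowest of the 6 libraries for 11 of 21. Among the 6602 tested genes with mean counts in the range of the G2/M genes, it was the lowest for 1029. The G1/S genes lay between 0.588 and 1.5 times their means in all libraries.

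**Figure D3:**
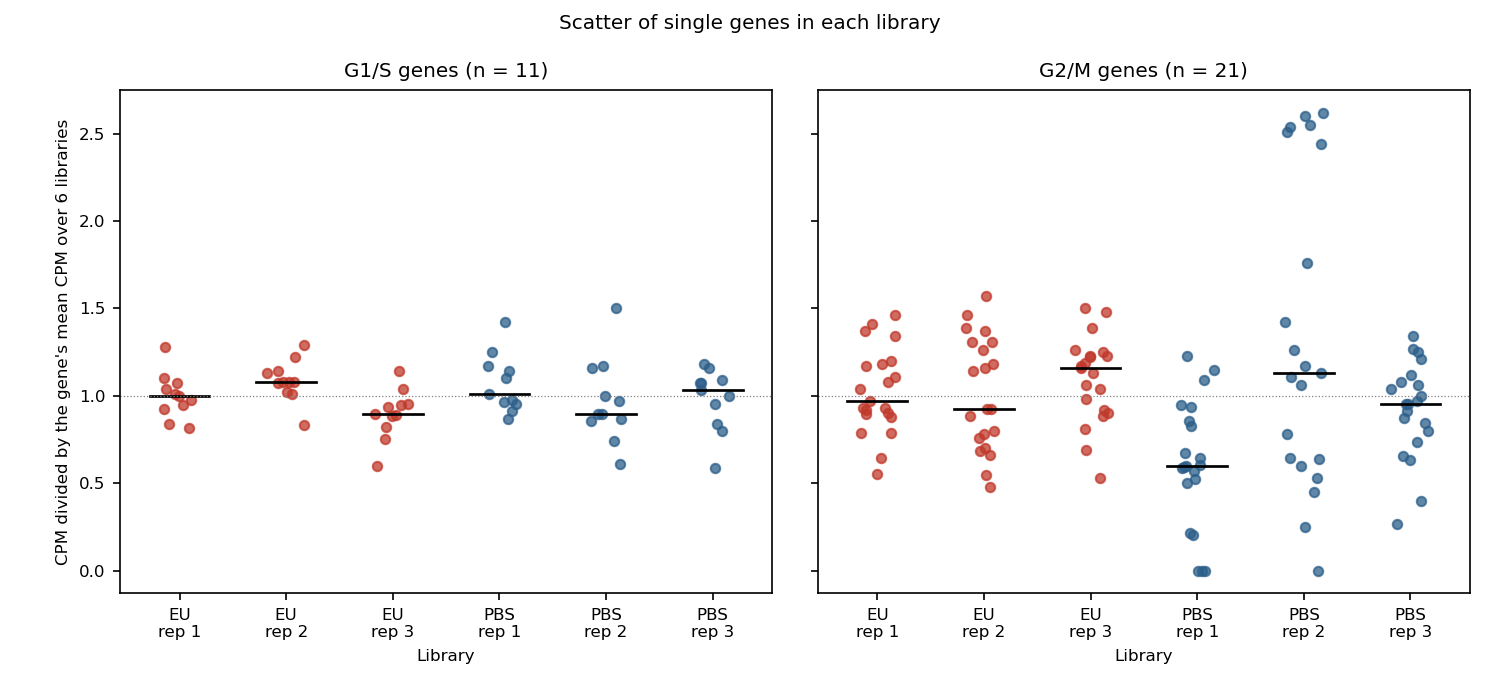
CPM of each gene divided by its mean over the 6 libraries (points) with the median per library (black bars), for 11 G1/S genes (left panel) and 21 G2/M genes (right panel), EU libraries in red and PBS libraries in blue. Of the G2/M genes 6 stand above 2 in PBS replicate 2 and in no other library, and values of 0 occur in PBS replicates 1 and 2. The share of other tested genes above 2 was not counted.

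The spread was put on a scale of counting error, as the variance between the 3 libraries of a group divided by the variance that counting alone would give, where 1 means counting error only. For the G2/M genes the median of this ratio was 1.74 in EU and 15.1 in PBS, and PBS exceeded EU for 18 of 21 genes (85.7%). For the G1/S genes it was 2.86 in EU and 6.04 in PBS, and PBS exceeded EU for 7 of 11 (63.6%). Over all genes tested PBS exceeded EU for 76.8%, and for 80.2% and 77.7% of the tested genes with mean counts in the range of the G2/M genes and of the G1/S genes. The ratio was 1.49 in EU and 68.9 in PBS for Ccna2, 1.81 in EU and 61.1 in PBS for Ube2c and 0.509 in EU and 51.6 in PBS for Plk1, while it was 6.85 in EU and 3.17 in PBS for Nusap1 and 7.56 in EU and 0.662 in PBS for Tyms. The wider spread in PBS was also seen over all genes. Over all 18511 genes tested the medians were 3.55 in EU and 12.0 in PBS, and over the 6602 genes with mean counts in the range of the G2/M genes (12.3 to 230.7 counts) they were 2.67 in EU and 10.5 in PBS. PBS replicate 2 was the highest or lowest library for 15 of 21 G2/M genes (71.4%), and for 69.8% of those 6602 genes. Without PBS replicate 2 the PBS median was 4.51 for the G2/M genes, 7.7 for the G1/S genes and 4.7 for all genes tested. How library quality bears on these values was not tested.

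**Figure D4:**
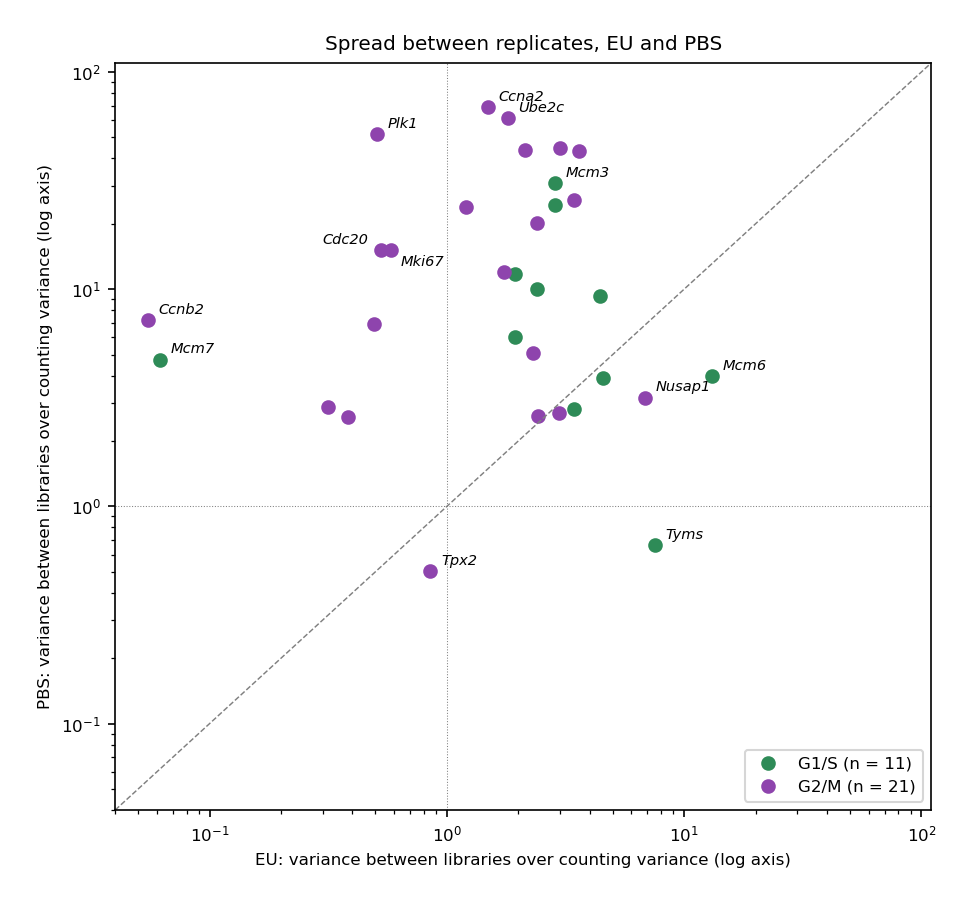
Variance between the 3 EU libraries over counting variance (horizontal, log axis) against the same for the 3 PBS libraries (vertical, log axis), 1 point per gene, G1/S in green and G2/M in purple, with the dashed line for equal values and dotted lines at 1. Of the 21 G2/M genes 18 lie above the dashed line, with Ccna2, Ube2c and Plk1 highest, and Tyms, Mcm6, Nusap1 and Tpx2 are among those below it.

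Other genes of the same phases gave no call either. Of 50 further G1/S and replication genes 48 were tested, 31 with higher and 17 with lower values in EU (64.6% higher, against 52.2% of all genes tested), with a median log2 fold of 0.14. By edgeR 0 passed and 1, Dtl, had an unadjusted p under 0.05 (background 7.88%). Dtl, the substrate receptor that destroys the licensing factor CDT1 in S phase, had 2.23, 2.24 and 3.396 CPM in EU and 1.28, 1.44 and 1.84 CPM in PBS, a log2 fold of 0.79 (95% interval 0.049 to 1.52, edgeR adjusted p = 0.599). Cdca7 and Gins2, a chromatin factor and a subunit of the replicative helicase, followed with log2 folds of 0.92 (95% interval -0.11 to 1.95) and 0.72 (95% interval -0.16 to 1.60). Cdca7 had 1.804, 1.995 and 2.16 CPM in EU and 1.0, 0.511 and 1.61 CPM in PBS. Gins2 had 1.86, 1.995 and 1.97 CPM in EU and 0.8301, 1.02 and 1.68 CPM in PBS. The EU values of Dtl, Cdca7 and Gins2, picked for the smallest p of the list, lay above all PBS values. In these 3 genes PBS replicate 3 came closest to EU. Of the 48 genes, 6 lay apart with higher and 1 with lower values in EU (14.6%, background 15.7% of all genes tested). The gene with the highest CPM, Usp1, a deubiquitinase acting on PCNA, had a log2 fold of 0.084 (95% interval -0.23 to 0.40).

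Of 52 further G2/M genes 50 were tested, 24 with higher and 26 with lower values in EU, and a median log2 fold of -0.0055. By edgeR 0 passed, and 5 had an unadjusted p under 0.05, 4 higher and 1 lower (background 7.88% in both directions). Cit, Lmnb1 and Incenp, picked for the smallest p of the list, were higher. Cdc25b (higher) and Bub3 (lower) were added after their values were seen. Cit, citron kinase, which acts in the final cut between daughter cells, had 140.0, 139 and 162 CPM in EU and 83.3, 108 and 104 CPM in PBS, with no overlap. Its log2 fold was 0.58 (95% interval 0.36 to 0.81, edgeR adjusted p = 0.123). Neurons also make a form of Cit without the kinase domain, and counts per gene do not separate the forms. Cit passed with DESeq2 (adjusted p = 9.29e-06) and with edgeR without the filter (adjusted p = 2.50e-09), and did not pass with limma voom (adjusted p = 0.0656). Lmnb1, a lamin of the nuclear envelope, and Incenp, the scaffold of the passenger complex, had log2 folds of 0.55 (95% interval 0.21 to 0.90) and 0.52 (95% interval 0.053 to 0.99). Lmnb1 had 10.4, 9.8 and 8.43 CPM in EU and 6.32, 6.04 and 7.15 CPM in PBS, and Incenp 10.2, 9.9 and 9.29 CPM in EU and 8.54, 4.69 and 7.199 CPM in PBS. The most abundant gene of the list, Ckap5, a microtubule polymerase also used in neurons, had a log2 fold of 0.034 (95% interval -0.079 to 0.15). The summed level of the list was 683 to 699 CPM in EU and 614 to 657 CPM in PBS, without overlap. Without Cit, left out after its values were seen, the sums overlapped, at 543, 560.1 and 521 CPM in EU and 531, 549 and 539.8 CPM in PBS.

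The last list held 20 tested genes of entry into and exit from the cycle: the D cyclins, their kinases CDK4 and CDK6, their inhibitors, the RB family and parts of DREAM. By edgeR 0 of 20 passed, 11 had higher and 9 lower values in EU, and 5 had an unadjusted p under 0.05, all lower (background 4.05% lower). All 3 D cyclins, which take quiescent cells into G1, were among the 5, with Lin37 and Btg1. Ccnd1, Lin37 and Ccnd3 were picked for the smallest p of the list and Ccnd2 for the highest CPM. Btg1 was added after its values were seen. Ccnd1 had 39.02, 39.05 and 35.05 CPM in EU and 39.2, 56.03 and 47.3 CPM in PBS, EU replicates 1 and 2 and PBS replicate 1 being nearly equal, with a log2 fold of -0.33 (95% interval -0.60 to -0.064, edgeR adjusted p = 0.5105). Ccnd3 had 23.9, 25.1 and 19.6 CPM in EU and 26.7, 29.3 and 27.3 CPM in PBS, a log2 fold of -0.28 (95% interval -0.52 to -0.036, edgeR adjusted p = 0.554). Ccnd2, the most abundant of the list, had 152, 140.5 and 125 CPM in EU and 159, 150.5 and 161 CPM in PBS, where EU replicate 1 lay among the PBS values, and a log2 fold of -0.17 (95% interval -0.34 to -0.0067, edgeR adjusted p = 0.608). Lin37, a subunit of MuvB, had 10.1, 9.65 and 10.02 CPM in EU and 11.7, 16.9 and 11.6 CPM in PBS, a log2 fold of -0.43 (95% interval -0.80 to -0.064, edgeR adjusted p = 0.536). Of the 20 genes tested, 1 lay apart with higher and 5 with lower values in EU (30.0%, background 15.7% of all genes tested). The summed level of the list was 531 to 556 CPM in EU and 570.4 to 581 CPM in PBS, without overlap. Without the 3 D cyclins, left out after their values were seen, the sums overlapped, at 341, 348 and 351 CPM in EU and 356, 335 and 337 CPM in PBS. The summed level of the principal neuron markers, given above, was also lower in EU, and its part in the D cyclin values was not tested.

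**Figure D5:**
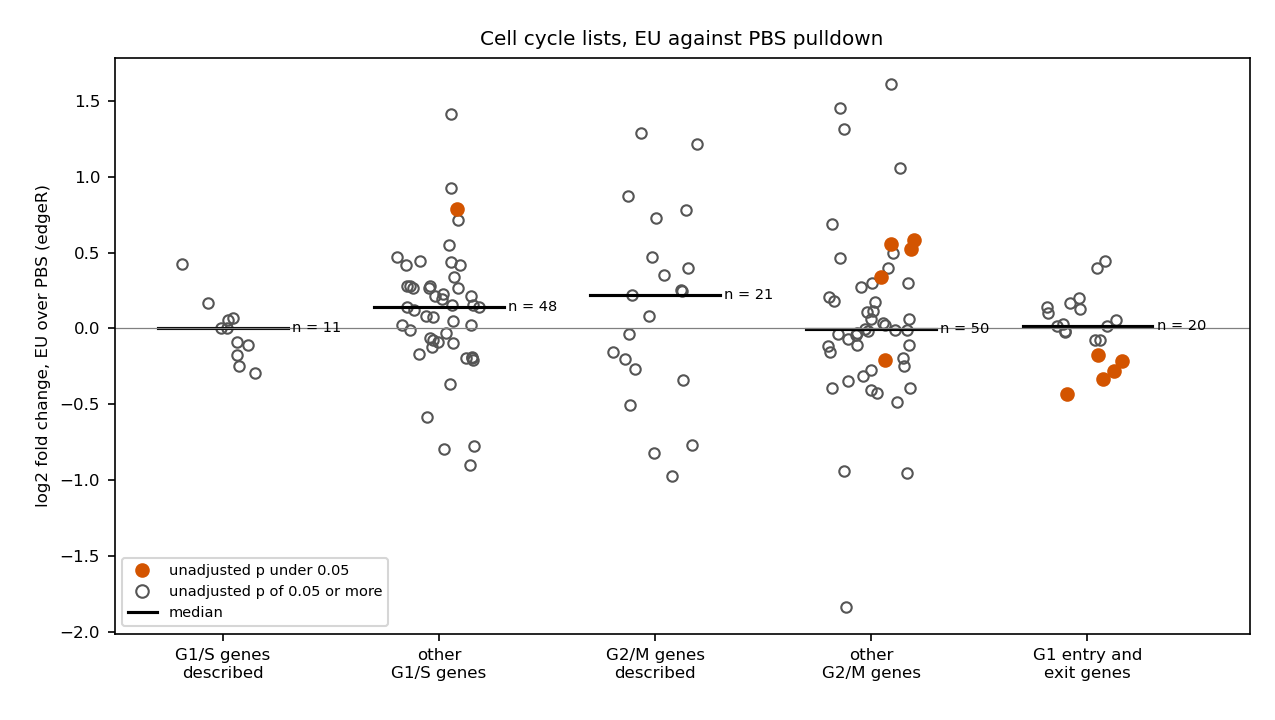
Log2 fold of EU over PBS from edgeR for each tested gene of 5 lists (points) with the median (black bars) and the number of genes, filled where the unadjusted p was under 0.05. The filled points are 1 of the other G1/S genes, 5 of the other G2/M genes and 5 of the G1 entry and exit genes, the last all below 0.

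Markers of the cell types that could hold dividing cells overlapped between the groups. The summed level of 12 progenitor and neuroblast markers was 239.5 to 265 CPM in EU and 258 to 265 CPM in PBS, with 5 genes higher and 7 lower in EU. The 10 oligodendrocyte precursor markers had 602 to 622 CPM in EU and 572 to 632 CPM in PBS, the 10 microglial markers 301 to 330.3 CPM in EU and 282 to 316 CPM in PBS and the 10 endothelial markers 195 to 198 CPM in EU and 189 to 204 CPM in PBS. None of these 42 markers had 0 counts in any library. The sum of choroid plexus and ependymal markers, a sign of neighbouring tissue, ranged widely, at 1210.0 to 5369 CPM in EU and 2451 to 7794 CPM in PBS. Ttr and Enpp2 held most of it, with 4919 and 2385 CPM in PBS replicate 1. Foxj1 and Tmem212 of this list were highest in PBS replicate 2 instead, at 23.15 and 3.297 CPM. EU replicate 3, the lowest library in the choroid plexus and ependymal sum, was also the lowest in the G1/S sum. PBS replicate 1, the highest in the choroid plexus and ependymal sum, was the lowest in the G2/M sum. Of 7 blood markers 4 had 0 counts in at least 1 library, and their sum was 7.72 to 11.8 CPM in EU and 7.17 to 8.83 CPM in PBS. Astrocyte and oligodendrocyte markers, 10 each, had 7250.0 to 7683 CPM in EU and 7149 to 7316 CPM in PBS, and 6095 to 6463 CPM in EU and 6083 to 6440.0 CPM in PBS. The part of these cell types in the cell cycle levels was not tested.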

How the data were processed

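The values deposited by the authors are whole-number read counts for each gene, not scaled. Tools listed in the submitters' processing notes are STAR 2.7.10b, featureCounts 2.0.1 and bcl2fastq 2.20.0, with GRCm39 as the build; neither the annotation release nor the strand setting is given in the sources used here. Of 55508 rows, 92 ERCC rows (0 counts) were left out, and 1492 gene rows without a symbol (0.0171% of counts) were kept. The table held 0 columns of other samples. Libraries were grouped by their titles. edgeR 4.0.16 in R 4.3.3 was run on all genes: filterByExpr, TMM, quasi-likelihood test, two-sided, treatment as the only term, Benjamini-Hochberg at 0.05. The standard error was taken as |log2 fold| divided by √F, and 95% intervals use the test's degrees of freedom. Alternatives were other scalings and filters, DESeq2 1.42.0, limma 3.58.1 voom, a replicate block and leaving out each library. The fits were tested on simulated data with known changes and the same spread for all genes and both groups. Spread differed between the groups here, so that test does not show which changes of the 32 genes could be found. Lengths are of the longest GENCODE M21 transcript (99.6% of tested genes, and 32 of the 32), matched by identifier, with no coordinates taken. A promoter with several starts is represented by the lowest coordinate. Figures used matplotlib 3.10.9. The genes, lists and tests were chosen with earlier results of these data known. All 32 genes are named, and of each other list the 3 with the smallest p and the one with the highest CPM. Ccne1, Cdc25b, Bub3 and Btg1 were named in addition. 1 listed gene was not analysed here. No 2 libraries were copies (lowest chi-square per degree of freedom 8.06). Duplicate reads could not be told from separate molecules, so limits from counts cover counting error only.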

Additional observations from a re-analysis of the deposited data

How the results depend on the processing

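No call among the 32 genes was made under any of the 13 alternatives (with DESeq2 25 of them had no adjusted p), and 16 of the 32 kept the sign of their log2 fold in every alternative in which they were tested. With the CPM filter only 10 of the 21 G2/M genes were tested. Over all genes edgeR called 0, against 288 with DESeq2, 12 with limma voom, 248 without the filter, 18 with the replicate block and 0 to 20 with a library left out (20 without PBS replicate 2 and 0 or 1 without any other). Of the other G2/M genes 0 were called, against 1 (Cit) with DESeq2, without the filter and with the replicate block. Same-numbered libraries correlated at 0.145, -0.011 and 0.147 in their deviations from the group means, and not every library was closest to its own number, so the numbers were not taken as pairs. With the replicate block the median log2 fold of the G2/M genes was 0.44, and Cit had an adjusted p of 0.0391. The other counts for the lists were 0 in all alternatives.

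Signs turned for 16 genes. With RLE size factors, DESeq2 and voom Mcm4 had -0.0010, -0.0016 and -0.011 and Tyms -0.0020, -0.0012 and -0.039. With voom Aurkb had 0.62, Bub1 1.29 and Cenpf 0.0020. With the block Tyms had -0.059, Aurkb 0.64 and Bub1 0.87. The causes were not tested. With a library left out, log2 folds ran from -0.54 to 0.062 for Mcm3, -0.090 to 0.13 for Mcm4, -0.097 to 0.26 for Mcm5, -0.057 to 0.21 for Rrm1, -0.30 to 0.17 for Rrm2 and -0.22 to 0.26 for Tyms. They ran from -0.17 to 0.31 for Cdk1, -1.12 to 0.24 for Plk1, -0.69 to 1.59 for Aurkb, -0.74 to 1.48 for Bub1 and -0.37 to 2.90 for Ube2c. They ran from -0.58 to 0.25 for Cenpe, -0.19 to 0.033 for Cenpf, -1.17 to 0.038 for Cdca8, -0.031 to 0.56 for Top2a and -0.041 to 0.55 for Hmgb2. The other 16 kept their sign, and of these the log2 folds ran from -0.40 to -0.19 for Mcm2, -0.31 to -0.10 for Mcm6, 0.10 to 0.27 for Mcm7, -0.13 to -0.044 for Pcna, 0.23 to 0.59 for Ccne2, -1.30 to -0.036 for Ccna2, 0.29 to 1.11 for Ccnb1, 0.71 to 2.14 for Ccnb2, 0.69 to 1.16 for Aurka, 0.37 to 1.08 for Bub1b, 0.63 to 2.04 for Cdc20, 0.044 to 0.81 for Birc5, -0.42 to -0.28 for Tpx2, -0.94 to -0.29 for Nusap1, 0.19 to 0.73 for Prc1 and 0.28 to 0.68 for Mki67. In 11 genes the turn came, among others, without PBS replicate 2.

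Bub1 (0 to 33 counts per library) and Ube2c (0 to 64) had log2 intervals of -2.86 to 2.55 and -2.49 to 2.93, beside PBS variances of 24 and 61.1 times counting variance.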
